A study of Mus musculus with 21 samples.

Results

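Tbx21, Eomes, Prdm1, Zeb2, Bcl6, Tox, Runx3 and Bhlhe40 encode transcription factors that steer CD8 T cells towards effector, memory or exhausted states. These 8 genes were chosen by name, with earlier results of these data known. They were read from each of the 21 count tables, which list 17516 genes. All 8 were found in each table, and their level in CPM (counts of unique molecular identifiers, or UMIs, scaled to a common library total) and the share of cells that hold them were taken per library.

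All cells were OT1 CD8 T cells from mice, which carry a transgenic T cell receptor for an ovalbumin peptide. Naive cells were profiled on day 0, before stimulation. The other libraries came from cells stimulated on day 0 with beads that carry antibodies to CD3 and CD28, then cultured with no added cytokine, with IL-2, with IL-2v or with IL-15. IL-2v is a variant of IL-2 that the labels also call mutant IL-2bg. Doses were 5 or 50 IU/mL of a single cytokine. Cells were profiled on days 3, 5 and 10 with each cytokine and on days 3 and 5 with none. All groups share the OT1 receptor transgene and, apart from the naive cells, the bead stimulation. The treatment labels of 6 libraries contradict their titles: the 3 titled as IL-2 at 50 IU/mL are labelled interleukin-3, and the 3 titled as IL-15 at 50 IU/mL are labelled interleukin-16. The titles were followed, so each dose comparison within IL-2 or IL-15, and each comparison with those cytokines at 50 IU/mL, rests on the titles. The labels also describe a sort of T cells from tumours beside the culture, and the libraries are taken here as cultured cells.

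T-bet, the product of Tbx21, and Eomes are related T-box factors. T-bet drives effector genes, and Eomes is tied to memory and to the response to IL-2 and IL-15. Blimp-1, the product of Prdm1, pushes activated T cells to terminal effector differentiation, and Bcl6 is a repressor that opposes it. Zeb2 acts with T-bet in terminal effector cells, Tox is known for exhausted T cells, Runx3 keeps the CD8 lineage and its cytotoxic genes, and Bhlhe40 supports cytokine production and the metabolism of tissue-resident and tumour T cells.

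Each of the 21 conditions was 1 library, so the differences between conditions have no replicate check and no p-value was computed. Intervals are exact 95% intervals for counting error only: Poisson for a CPM, binomial (Clopper-Pearson) for a share of cells and conditional for a ratio. Of 106458 cell barcodes, 106456 were kept, with 10589950 UMIs (IL-2 at 50 IU/mL, day 5) to 32648496 UMIs (IL-2v at 5 IU/mL, day 10) per library and a median of 3016 to 5065 UMIs per cell. Any pair of libraries shared 1 to 19 barcodes, at most 0.340% of the smaller library. In cells thinned to 2000 UMIs, the T cell gene Cd3d was seen in 78.0% to 96.3% and Cd8b1 in 29.5% to 80.6% of cells, and Cd4 in at most 0.514%. Of the B cell genes, Ms4a1 reached 0.0224%, Cd79a 0.324% and Cd79b 3.44% (IL-15 at 5 IU/mL, day 3). Zbtb7b, a CD4 lineage factor, reached 5.80% (IL-2 at 50 IU/mL, day 10). Trdc, of gamma delta T cells, was seen in 9.11% to 31.7% of cells, highest with IL-2 at 5 IU/mL on day 10. The part of these genes in the results was not tested. The share of cells with a UMI of the division genes Mki67 or Top2a ran from 3.01% in naive cells to 86.9% with IL-2v at 50 IU/mL on day 3.

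**Figure D1:**
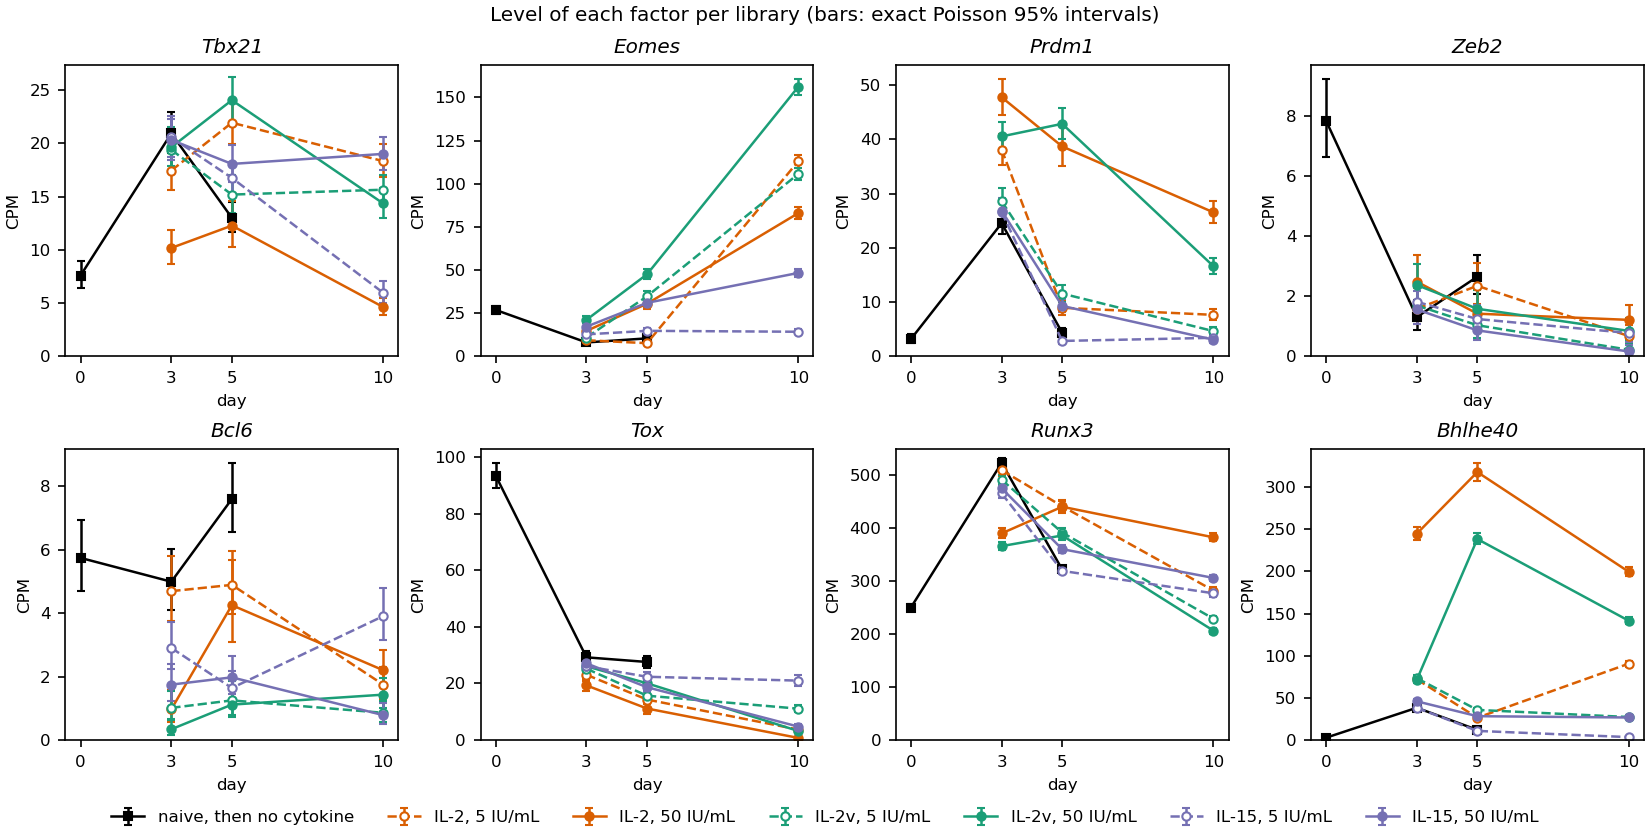
Level of each of the 8 factors (vertical axis, CPM, from 0) against day of culture (horizontal axis) in the 21 libraries, with exact Poisson 95% intervals as bars, colours for cytokines, and dashed lines with open symbols for 5 IU/mL. Eomes reached its highest levels on day 10, Tox its highest level in naive cells, and Bhlhe40 was above 100 CPM in 5 libraries, all at 50 IU/mL of IL-2 or IL-2v.

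Bhlhe40, Prdm1, Tbx21 and Runx3 were higher, and Eomes and Tox lower, on day 3 after stimulation than in naive cells. A gene was judged in a pair of libraries where it had at least 20 CPM in either of them, and was called where the values of log2(CPM + 1) differed by at least 1, that is 2-fold. On this scale the change of low genes is understated. Between naive cells and day 3 without cytokine, 4 of the 8 members were called higher and 2 lower, of 6 judged. Over all genes judged in that pair, 11.1% were higher and 8.31% lower. Bhlhe40, from 2.71 CPM (2.01 to 3.57) in naive cells to 38.2 (35.7 to 40.9), had the largest ratio at 14.1 (10.6 to 19.2). Prdm1 went from 3.14 to 24.5 CPM, a ratio of 7.81 (5.95 to 10.4). Tbx21 was 2.76-fold higher (2.28 to 3.36) and Runx3 2.09-fold higher (2.02 to 2.17). Eomes and Tox were lower, at 0.297 (0.249 to 0.353) and 0.313 (0.285 to 0.342) of their naive level. Zeb2 and Bcl6 stayed under 20 CPM in both libraries and were not judged.

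Without cytokine, Prdm1 and Bhlhe40 were lower on day 5 than on day 3. Prdm1 had 4.32 CPM on day 5 against 24.5 on day 3, and Bhlhe40 12 against 38.2, while naive cells had 3.14 and 2.71 CPM. They were the 2 members called lower of 5 judged in this pair, and none was called higher. Over all genes, 9.47% were lower and 3.61% higher.

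Prdm1 lies on chromosome 10 (44437177 to 44528501, minus strand, GENCODE vM21 on GRCm38). On day 3 it had 24.5 CPM without cytokine, 38.1 then 47.8 under IL-2, 28.6 then 40.6 under IL-2v and 26.6 then 26.8 under IL-15, each at 5 and then 50 IU/mL. Day 5 gave 4.32 without cytokine, 8.93 then 38.7 under IL-2, 11.6 then 42.9 under IL-2v and 2.81 then 9.27 under IL-15. On day 10 they were 7.63 then 26.5 under IL-2, 4.63 then 16.6 under IL-2v and 3.39 then 3.04 under IL-15. Prdm1 was thus near its day 3 level on day 5 with 50 IU/mL of IL-2 or IL-2v, and under 12 CPM in the other day 5 libraries. The share of cells with a Prdm1 UMI at 2000 UMIs per cell ran from 0.621% to 8.96%, against 0.671% in naive cells. In all cells, not thinned, it ran from 1.11% (naive) to 18.2% (IL-2 at 50 IU/mL, day 3).

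Bhlhe40 lies on chromosome 6 (108660629 to 108666925, plus strand). Its day 3 values were 38.2 CPM without cytokine, 72.1 then 245 under IL-2, 73.3 then 71.4 under IL-2v and 38.2 then 45.9 under IL-15 at 5 and 50 IU/mL. Day 5 gave 12 without cytokine, 26.4 then 318 under IL-2, 35.7 then 238 under IL-2v and 10.8 then 28.3 under IL-15. On day 10 they were 90.5 then 199.7 under IL-2, 27.3 then 142 under IL-2v and 3.43 then 26.7 under IL-15. The 50 IU/mL library of IL-2 was the highest of its day on each of the 3 days, and IL-15 at 5 IU/mL was the lowest cytokine library of its day. Ranked by level, 10 of 20 neighbouring libraries had overlapping counting intervals for Bhlhe40, and 16 of 20 for Prdm1. In the IL-2 library at 50 IU/mL on day 5, 39.7% of thinned cells had a Bhlhe40 UMI, against 0.559% of naive cells. Not thinned, these shares were 51.0% and 0.879%.

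Compared with the day-matched library that had no cytokine, the 6 cytokine conditions gave 12 pairs on days 3 and 5. These pairs share 1 control library per day and are not independent of each other. Of 56 member pairs judged (of 96), 13 were higher and 1 lower, beside 6.31% and 2.04% over all genes. The 13 were 6 of Bhlhe40, 5 of Eomes and 2 of Prdm1, and the lower one was Tox with IL-2 at 50 IU/mL on day 5. Eomes and Prdm1 were each higher than the control in 11 of 12 pairs, with median differences of 0.91 and 0.80, and Bhlhe40 in 10 of 12, with a median of 1.0. None of the 3 was higher throughout. A gene was consistent if it had 1 sign in all pairs and a median difference of at least 1 in size. It also had to be judged, here with a mean of at least 20 CPM on either side of the pairs. No member met this, beside 0.675% of the genes judged as higher and 0.19% as lower. Bcl6 had 1 sign and a median of -1.55, but stayed under 20 CPM and was not judged.

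**Figure D2:**
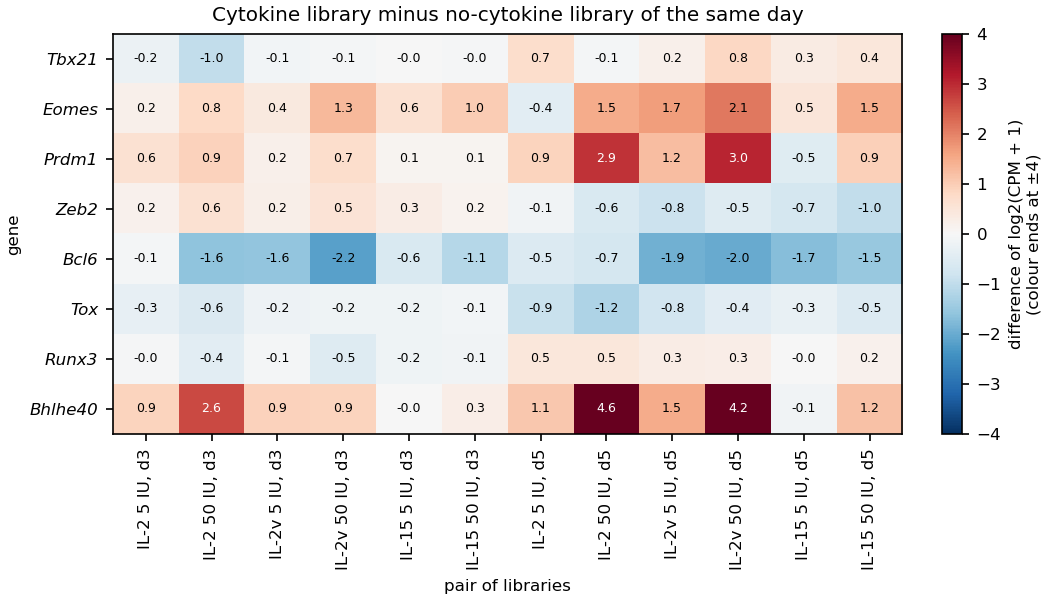
Difference of log2(CPM + 1) between each cytokine library and its day-matched library without cytokine (columns, 12 pairs on days 3 and 5) for the 8 factors (rows), with the value written in each cell and red for higher. Bcl6 and Tox were lower in all 12 pairs, and the largest difference was 4.62, for Bhlhe40 with IL-2 at 50 IU/mL on day 5.

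Prdm1 and Bhlhe40 were lower with IL-15 than with IL-2 in every pair. At equal day and dose, 8 of 26 judged member pairs were lower with IL-15 than with IL-2 and 1 was higher, beside 5.68% and 3.21% over all genes. Bhlhe40 was lower with IL-15 in 6 of 6 pairs, with a median difference of -2.62 (-4.37 to -0.90). Prdm1 was also lower in 6 of 6 pairs, with a median of -1.18 (-2.77 to -0.50). Of the genes judged, 1.7% were consistently lower and 0.49% higher, and 9.13% of genes at 1 CPM or more were lower in all 6 pairs. With day 5 left out, the median for Prdm1 was -0.89, and with a pseudocount of 10 in place of 1 it was -0.61, neither of which is a call.

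Bhlhe40, Prdm1 and Eomes were the members called higher with IL-2v than with IL-15. Against IL-15 at equal day and dose, IL-2v had 8 member pairs higher and 0 lower of 28 judged, beside 6.15% and 2.48% over all genes. Bhlhe40 was higher in 6 of 6 pairs with a median of 2.0, which was 1.28 with day 10 left out and 1.30 with a pseudocount of 10. Prdm1 was higher in 6 of 6 pairs with a median of 1.15, but the median was 0.47 with day 5 left out and 1.91, from means under 20 CPM and so not judged, with day 3 left out. With a pseudocount of 10 it was 0.60, which is no call. Eomes was higher in 5 of 6 pairs, with a median of 0.89, which was 1.43 and a consistent call with day 3 left out, and 0.44 with day 10 left out. Of the genes judged, 2.48% were consistently higher and 0.585% lower, and 16.2% of genes at 1 CPM or more were higher in all 6 pairs.

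Against IL-2, IL-2v had 1 member pair higher and 2 lower of 26 judged, beside 3.99% and 2.55% over all genes. The lower ones were Bhlhe40 at 50 IU/mL on day 3, 71.4 against 245 CPM (ratio 0.292, 0.275 to 0.309), and at 5 IU/mL on day 10, 27.3 against 90.5 CPM (ratio 0.301, 0.279 to 0.325). Eomes was the higher one, at 5 IU/mL on day 5, with 34.7 against 7.53 CPM (ratio 4.61, 3.86 to 5.54). No member was consistent in this comparison, in which 1.04% of the genes judged were consistently higher and 0.274% lower. At 50 IU/mL on day 5, Bhlhe40 had 238 CPM with IL-2v and 318 with IL-2, within 2-fold.

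**Figure D3:**
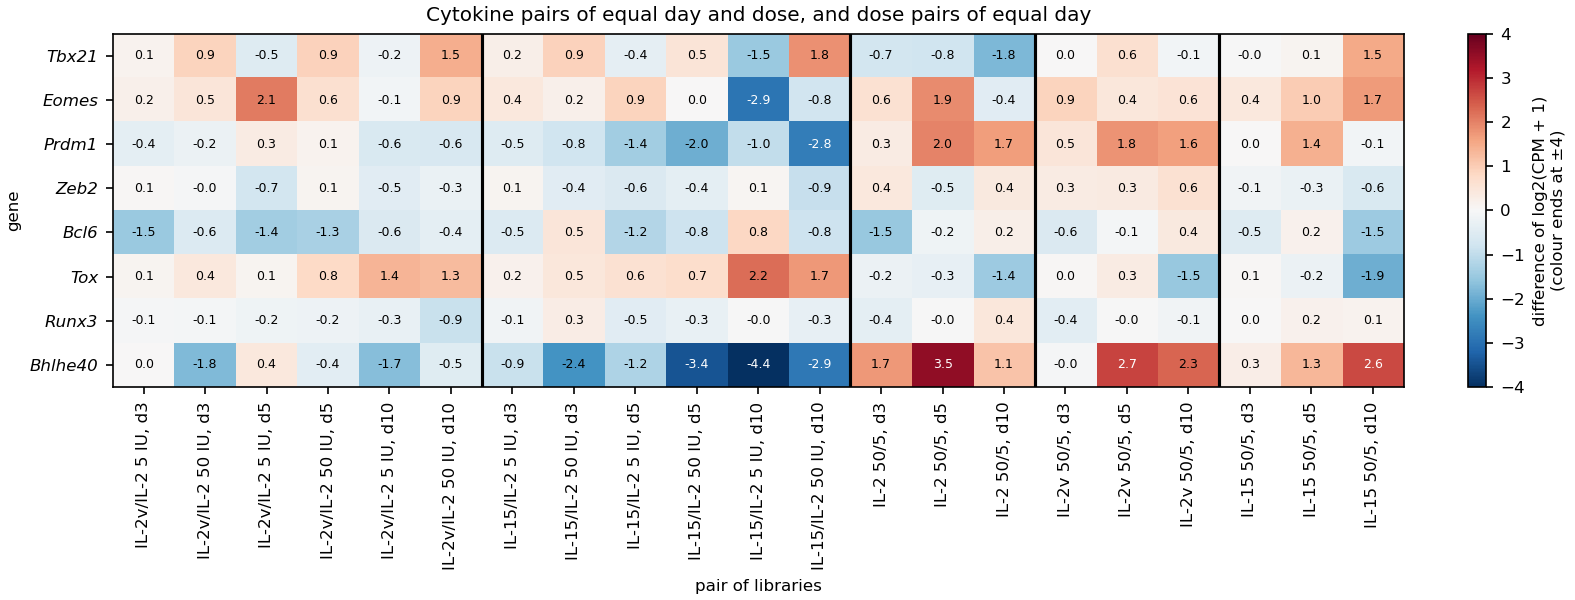
Difference of log2(CPM + 1) for the 8 factors (rows) in pairs of libraries (columns), with the value in each cell. The first columns are IL-2v against IL-2 and IL-15 against IL-2 at equal day and dose. The other columns are the higher against the lower dose within IL-2, IL-2v and IL-15 on the same day. Bhlhe40 and Prdm1 were lower in all 6 pairs of IL-15 against IL-2, and Bcl6 was lower in all 6 pairs of IL-2v against IL-2.

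All 13 member pairs called higher at the higher dose were of Bhlhe40, Prdm1 or Eomes. With 50 against 5 IU/mL of the same cytokine on the same day, there were 13 such pairs, and 1 lower (Tox with IL-15 on day 10), of 40 judged, beside 4.58% and 3.38% over all genes. Within IL-2, Bhlhe40 (median 1.75) and Prdm1 (median 1.68, and 1.05 with a pseudocount of 10) were higher on all 3 days, and 4.29% of the genes judged were consistently higher and 2.7% lower. The IL-2 median of Bhlhe40 was 2.64 with day 10 left out, and that of Prdm1 was 0.997 with day 5 left out, just under the call. Eomes was higher at 50 IU/mL of IL-2 on 2 of the 3 days (median 0.62) and lower on day 10. It was called higher only with day 10 left out. Within IL-2v, Prdm1 was consistently higher (median 1.65, and 1.07 with day 5 left out, but 0.86 and no call with a pseudocount of 10), beside 2.38% of genes higher and 0.626% lower. Bhlhe40 was 6.68-fold (6.16 to 7.25) and 5.19-fold (4.83 to 5.59) higher on days 5 and 10, and had 71.4 against 73.3 CPM on day 3. It was called consistently higher only with day 3 left out. Within IL-15, Bhlhe40 (median 1.31) and Eomes (median 1.02) were consistently higher, beside 0.869% of genes higher and 0.181% lower. Both calls were lost with day 10 left out, at 0.79 and 0.72, and with a pseudocount of 10, at 0.88 and 0.73, and the median of Bhlhe40 was 1.98 with day 3 left out. In cells with neither a Mki67 nor a Top2a UMI, Bhlhe40 was higher on 2 of the 3 days. Prdm1 had 26.6 and 26.8 CPM at 5 and 50 IU/mL of IL-15 on day 3, and 3.39 and 3.04 on day 10. Tox was called consistently lower at the higher dose of IL-15 only with day 3 left out.

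Eomes lies on chromosome 9 (118478212 to 118486132, plus strand) and had its highest levels on day 10. Naive cells had 26.8 CPM (24.5 to 29.3). On day 3 the values were 7.96 without cytokine, 9.22 then 14.7 under IL-2, 10.8 then 21.1 under IL-2v and 12.6 then 17.1 under IL-15 at 5 and 50 IU/mL. Day 5 gave 10.3 without cytokine, 7.53 then 30.4 under IL-2, 34.7 then 47.4 under IL-2v and 14.7 then 30.9 under IL-15. Day 10 values were 113 then 82.9 under IL-2, 106 then 156 under IL-2v and 14.2 then 48.3 under IL-15. The 4 day 10 libraries of IL-2 and IL-2v were above all other libraries. Eomes was seen in 24.7% of thinned cells with IL-2v at 50 IU/mL on day 10 and in 4.36% of naive cells, or 46.7% and 7.66% of cells not thinned.

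From day 5 to day 10 within a cytokine and dose, 5 of 22 judged member pairs were higher and 2 lower, beside 2.73% and 7.68% over all genes. Eomes accounted for 4 of the 5, with ratios of 15.0 (12.7 to 17.8) and 2.73 (2.43 to 3.07) for IL-2 at 5 and 50 IU/mL, and of 3.04 (2.80 to 3.32) and 3.29 (3.07 to 3.53) for IL-2v. Its level with IL-15 at 5 IU/mL was 14.7 CPM on day 5 and 14.2 on day 10. From day 3 to day 5, 4 of 31 judged member pairs were higher and 7 lower, beside 1.79% and 5.25% over all genes. Eomes was 3 of the 4 higher pairs, and Prdm1 was 4 of the 7 lower pairs.

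Some NK cell genes were also high on day 10. The summed level of 4 NK cell markers, all of them listed in the tables, was 40.6 then 135 CPM under IL-2 at 5 and 50 IU/mL, 5.64 then 82.7 under IL-2v and 0.343 then 4.36 under IL-15, against 0.816 to 9.16 in the libraries of days 0 to 5. Fcer1g (up to 113 CPM) and Klrb1c (up to 36.7 CPM) made up most of it. Tyrobp, an adaptor of NK receptors, reached 1.80 CPM at most, and Ncr1, which defines NK cells, 0.0336 CPM. A filter left out cells that held UMIs of at least 2 genes of other lineages, or of Cd4 with no Cd8a or Cd8b1. It took out 1.69% and 3.32% of day 10 cells with IL-2 at 5 and 50 IU/mL, and 0.210% and 3.08% with IL-2v. Eomes then had 112 and 81.1 CPM with IL-2 and 106 and 156 with IL-2v on day 10. Fcer1g alone was seen in 10.9% of thinned cells with IL-2 at 50 IU/mL on day 10, so the filter kept many cells with 1 NK cell gene. The IL-2v library at 5 IU/mL had Eomes at 106 CPM beside a marker sum of 5.64 CPM. The part of cells with NK cell genes in the Eomes levels was not tested.

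Tbx21 lies on chromosome 11 (97098071 to 97115331, minus strand) and varied little compared with Eomes. Its highest level was 5.21 times its lowest, against 20.7 times for Eomes. All 20 neighbouring libraries in its order had overlapping counting intervals. The same held for Bcl6, whose highest level was 22.4 times its lowest, so this overlap does not measure variation. Naive cells had 7.58 CPM (6.38 to 8.95). On day 3 the values were 20.9 without cytokine, 17.5 then 10.2 under IL-2, 19.4 then 19.6 under IL-2v and 20.6 then 20.3 under IL-15. Day 5 gave 13.0 without cytokine, 22.0 then 12.3 under IL-2, 15.2 then 24.1 under IL-2v and 16.8 then 18.1 under IL-15. Day 10 gave 18.3 then 4.62 under IL-2, 15.7 then 14.4 under IL-2v and 5.96 then 19.0 under IL-15. At 50 IU/mL of IL-2, Tbx21 was lower than at 5 IU/mL on all 3 days, with a median difference of -0.79 (-1.78 to -0.72). The median was -1.29 with day 3 left out, which is a call, and -1.25 with day 5 left out, from means under 20 CPM and so not judged. Of genes at 1 CPM or more, 22.8% were lower on all 3 days, so the shared sign alone does not set Tbx21 apart.

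Runx3, on chromosome 4 (135120652 to 135177990, plus strand), varied least of the 8 over the series, with a highest level 2.53 times its lowest. Its values were 250.1 CPM in naive cells and 523 without cytokine on day 3. With cytokines on day 3 they were 509.6 then 390.2 under IL-2, 491 then 366 under IL-2v and 466 then 475 under IL-15. Day 5 gave 322 without cytokine, 441 then 441 under IL-2, 392 then 386 under IL-2v and 319 then 360.5 under IL-15. Day 10 gave 282 then 383 under IL-2, 229 then 206 under IL-2v and 277 then 306 under IL-15. Runx3 was lower with IL-2v than with IL-2 in 6 of 6 pairs, by small amounts (median -0.18, -0.89 to -0.05), beside 4.11% of genes at 1 CPM or more that were lower in all 6. The largest of these differences was at 50 IU/mL on day 10, 206 against 383 CPM. On day 10 it was lower than on day 5 in 6 of 6 pairs (median -0.44), beside 11.2% of genes at 1 CPM or more, and in 5 of 6 with scaling by trimmed means.

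Tox, on chromosome 4 (6686353 to 6991557, minus strand), had its highest level in naive cells, at 93.6 CPM (89.2 to 98.1) and in 16.1% of thinned cells (27.9% of cells not thinned). On day 3 it had 29.3 CPM without cytokine, 23.1 then 19.3 under IL-2, 25.2 then 26.1 under IL-2v and 26.1 then 27.1 under IL-15. On day 5 it had 27.6 without cytokine, 14.3 then 11.1 under IL-2, 15.7 then 20.1 under IL-2v and 22.4 then 18.7 under IL-15. On day 10 the values were 3.69 then 0.733 (0.448 to 1.13) under IL-2, 11.1 then 3.19 under IL-2v and 21 then 4.74 under IL-15. Tox was lower in all 12 cytokine pairs against no cytokine, by a median of -0.39, beside 3.74% of genes at 1 CPM or more. It was higher with IL-15 than with IL-2 in 6 of 6 pairs (median 0.65, range 0.17 to 2.23), beside 7.85% of genes, and the median was 1.21 with day 3 left out and 1.10 with day 5 left out, both from means under 20 CPM and so not judged. With IL-2v it was higher than with IL-2 in 6 of 6 pairs (median 0.60), beside 13.8% of genes, in 5 of 6 with scaling by trimmed means, and in 4 of 6 in cells with neither a Mki67 nor a Top2a UMI. On day 10 the ratio of IL-15 to IL-2 at 5 IU/mL was 5.69 (4.62 to 7.06).

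**Figure D4:**
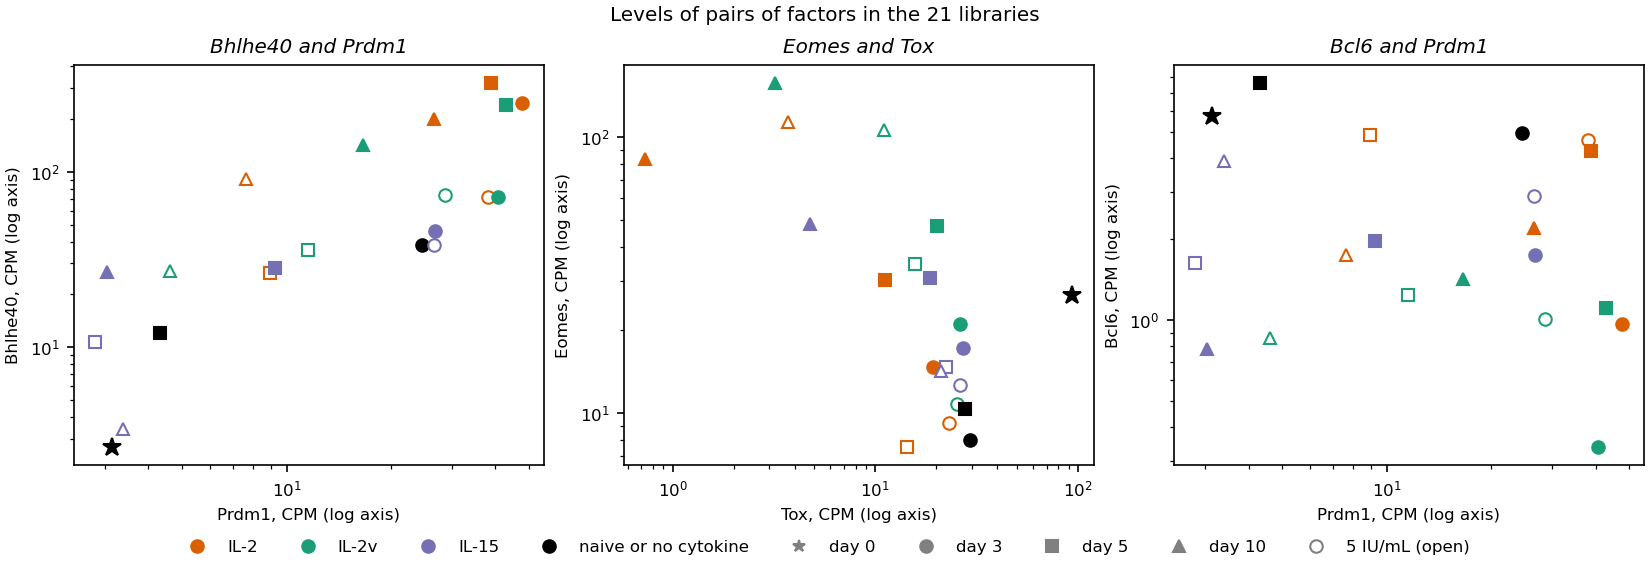
Levels of 3 pairs of factors (both axes in CPM, log axes), 1 point per library, with colours for cytokines, symbols for days and open symbols for 5 IU/mL. Bhlhe40 and Prdm1 mostly rose together (r of log2(CPM + 1) of 0.81), with exceptions. IL-2v at 50 IU/mL had Prdm1 at 40.6 and Bhlhe40 at 71.4 CPM on day 3, but 16.6 and 142 on day 10. Eomes was above 80 CPM in 4 day 10 libraries whose Tox was between 0.733 and 11.1 CPM. Bcl6 and Prdm1 showed no clear order (r of -0.20).

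Bcl6, on chromosome 16 (23965052 to 23988852, minus strand), was low in all libraries, and lower with each cytokine than without except where said below for IL-2 at 5 IU/mL on day 3. Naive cells had 5.74 CPM (4.70 to 6.94), and the libraries without cytokine 4.99 (4.10 to 6.01) on day 3 and 7.60 (6.57 to 8.74) on day 5. With cytokines on day 3 it had 4.69 then 0.969 CPM under IL-2, 1.01 then 0.339 under IL-2v and 2.90 then 1.75 under IL-15. On day 5 it had 4.89 then 4.25 under IL-2, 1.25 then 1.12 under IL-2v and 1.64 then 1.98 under IL-15. Day 10 gave 1.75 then 2.20 under IL-2, 0.858 then 1.43 under IL-2v and 3.90 then 0.785 under IL-15. All 12 cytokine libraries of days 3 and 5 were thus below their control, with a median difference of -1.55 (-2.16 to -0.07), where 3.74% of genes at 1 CPM or more were lower in all 12. The ratio interval lay below 1 in 11 of the 12, the exception being IL-2 at 5 IU/mL on day 3 (0.940, 0.701 to 1.26). With scaling by trimmed means, with totals without ribosomal protein and mitochondrial genes, and with a mean over cells, it was also lower in 12 of 12. It was lower in 11 of 12 in cells with at most 5% mitochondrial UMIs and in cells with neither a Mki67 nor a Top2a UMI. The pair that turned was IL-2 at 5 IU/mL on day 3, with 5.10 against 4.65 CPM and 7.10 against 6.21 CPM.

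IL-2v and IL-2 differed in Bcl6 as well. It was lower with IL-2v in 6 of 6 pairs (median -0.94, -1.5 to -0.40), beside 4.11% of genes, and this also held under those 3 scalings. At 5 IU/mL on day 3 the ratio was 0.216 (0.127 to 0.351), from 21 and 86 UMIs. At 50 IU/mL on day 5 it was 0.262 (0.153 to 0.440). Bcl6 was seen in 0.149% to 1.53% of thinned cells and 0.145% to 2.99% of cells not thinned, and in none of the libraries did it pass 20 CPM, so no pair counts among the calls given above.

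The promoters of Bcl6 are shown because this gene was below its control in all 12 pairs, or in 11 under those 2 filters on cells. IL-2 and IL-15 signal through STAT5, which binds the motif TTCNNNGAA, a palindrome that reads alike on both strands. RefSeq promoters of build GRCm38.p6 were matched by symbol for 6 of the 8 members, Tox and Bhlhe40 not among them, in 11 windows, and the 250 bases before each start were searched. Both Bcl6 windows held the motif, the first 118 bases before the start and the second at 168, 122 and 88 bases before it. In the sequences, 5′ to 3′ on the minus strand, the motif is in capitals.

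Bcl6 chr16:23988853-23989102: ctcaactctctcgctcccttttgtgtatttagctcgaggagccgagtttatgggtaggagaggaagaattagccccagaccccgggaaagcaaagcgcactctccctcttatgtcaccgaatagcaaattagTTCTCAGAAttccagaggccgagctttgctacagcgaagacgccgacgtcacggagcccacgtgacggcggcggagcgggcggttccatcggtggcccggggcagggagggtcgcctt

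Bcl6 chr16:23981284-23981533: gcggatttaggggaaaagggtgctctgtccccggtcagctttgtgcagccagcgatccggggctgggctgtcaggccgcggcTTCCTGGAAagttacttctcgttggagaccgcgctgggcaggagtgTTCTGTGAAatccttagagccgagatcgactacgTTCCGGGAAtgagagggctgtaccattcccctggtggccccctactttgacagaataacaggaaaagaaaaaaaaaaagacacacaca

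Of 32851 mouse promoters of this length, 7.02% held TTCNNNGAA. Among the other members it was found in 2 overlapping Zeb2 windows, where it is the same site, and not in the windows of Tbx21, Eomes, Prdm1 and Runx3. Other motifs were searched in the same windows. An E-box (CACGTG, in 6.02% of promoters) lay in the first Bcl6 window. RUNX (TGTGGT, 14.0%) and ZEB (CAGGTG, 17.2%) motifs lay in a Runx3 window, and ZEB motifs in those of Prdm1 and Tbx21. A T-box motif (AGGTGTGA, 1.12%) was not found in the members. A match describes the letters only, and no binding was measured here.

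Zeb2, on chromosome 2 (44983632 to 45117395, minus strand), was under 8 CPM in all 21 libraries and was not judged in any pair. Naive cells had its highest level, 7.85 CPM (6.63 to 9.24). The libraries without cytokine had 1.30 and 2.65 CPM on days 3 and 5, and the 18 cytokine libraries 0.157 (IL-15 at 50 IU/mL, day 10) to 2.48 CPM (IL-2 at 50 IU/mL, day 3). In naive cells up to 7 Zeb2 UMIs lay in 1 cell. Of 46 Zeb2 UMIs in naive cells thinned to 2000 UMIs, 10 lay in the 27 of 4471 cells that had a UMI of Gzmb, a cytotoxic granule protease. Those 27 cells are fewer than the 50 asked for in the splits of cells below, so naive cells were not compared there. Without cells that held markers of other lineages, the naive level was 7.45 CPM. With each cell counted alike, as the average of their own CPM values, it was 14.0 CPM.

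The targets of these factors were followed through lists of genes, described by counts and medians with no test. For each comparison, the share of all genes judged that was consistent is given above. Of 12 genes that T-bet and Eomes are known to activate, 7 could be judged for the dose of IL-2. Gzmb and Prf1, the pore protein of cytotoxic granules, were consistently higher at 50 IU/mL (Prf1 not with day 10 left out), and Cxcr3 and Ccl5 lower, with a list median of 0.74 beside 0.03 over all genes. With IL-15 against IL-2, Gzmb, Il12rb2 and Fasl were consistently lower of 7 judged, with a median of -0.89 beside -0.01. The call of Gzmb held with any 1 day left out, while Fasl was not called without day 5, nor Il12rb2 or Fasl without day 10. With IL-2v against IL-2, none of 7 was consistent. Cxcr3 and Ccl5 thus went the other way from Gzmb with the IL-2 dose, while Tbx21 itself was under 25 CPM throughout.

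Of 8 genes that Blimp-1 is known to repress, 6 were judged. At the higher dose of IL-2, the consistently lower genes included Id3, Tcf7 and Cd27, and Il2ra, the high-affinity IL-2 receptor chain, was higher, with a median of -1.82 beside 0.03 over all genes. At the higher dose of IL-2v, Id3, Tcf7 and Ccr7 were lower and Il2ra higher, with a median of -1.45 beside 0.10. With IL-2v against IL-15, Id3, Tcf7 and Cd27 were lower and Il2ra higher, with a median of -1.09 beside 0.10. With IL-15 against IL-2, where Prdm1 was consistently lower, 1 gene of the list, not named here, was consistently higher and Il2ra was lower. None of Id3, Tcf7 and Cd27 was consistent, and the median was 0.61 beside -0.01. Id3 was called higher with day 3 left out, and Tcf7 with day 5 left out. At the higher dose of IL-15, Id3 was lower (not without day 5) and Il2ra higher (not without day 10), with a median of -0.34 beside 0.02. Against no cytokine, Il2ra was higher and none was lower, with a median of -0.70 beside 0.08. With any 1 day left out, Id3 and Tcf7 were still lower for the dose of IL-2, the dose of IL-2v and IL-2v against IL-15. Cd27 was not called lower against IL-15 without day 10, nor Il2ra higher for the dose of IL-2v without day 5. Tcf7, which encodes the memory factor TCF-1, had 471 CPM in naive cells and 2.38 CPM with IL-2 at 50 IU/mL on day 10, where Prdm1 had 26.5.

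Among 16 other fate factors, 15 were judged for the dose of IL-2. Nfil3 and Myb were consistently higher, beside 4.29% of all genes judged, and Tcf7, Id3 and Klf2 lower, beside 2.7%, and the median of the list was -0.23 beside 0.03. With any 1 day left out Myb was no longer called, and the other 4 were. Nfil3, a basic leucine zipper factor, had 137 CPM with IL-2 at 50 IU/mL on day 10 and 1.46 CPM in naive cells. Of 10 genes linked to Tox and exhaustion, 2 to 4 could be judged in each comparison of cytokines or doses, and 4 calls were made. Lag3, an inhibitory receptor, was consistently higher at the higher dose of IL-2v, also with any 1 day left out, where the median of the 3 genes judged was 0.70 beside 0.10. Lag3 was lower with IL-15 than with IL-2 (median of 3 genes -1.14 beside -0.01), and Entpd1 was higher at the higher dose of IL-2 (median of 4 genes 1.07 beside 0.03). Neither of these was called without day 5 or without day 10. Ctla4, another inhibitory receptor, was lower with IL-2v than with IL-2 (median of 3 genes -0.61 beside 0.06), but not without day 5. Over all genes judged, 2.38% were consistently higher for the dose of IL-2v and 4.29% for the dose of IL-2. Consistently lower were 1.7% with IL-15 against IL-2 and 0.274% with IL-2v against IL-2. Pdcd1 stayed under 10 CPM in all libraries. Of 10 genes of the CD8 lineage and tissue residency, 4 to 6 were judged. Cd8b1, a chain of the CD8 co-receptor, was consistently lower at the higher dose of IL-2, also with any 1 day left out, and higher with IL-15 than with IL-2 (not with day 10 left out). Zbtb7b was higher at the higher dose of IL-2 (not without day 10) and of IL-2v (not without day 5 or without day 10). Itgae was lower at the higher dose of IL-15 (not without day 10), and Itgae and Xcl1 were lower with cytokines than without. In the comparisons of cytokines or doses, the medians of this list lay between -0.55 (cytokines against none) and 0.34 (IL-15 against IL-2). Of 6 terminal effector genes linked to Zeb2, 2 were judged, Itga4 and Gzma. Itga4, an integrin chain, was lower at the higher dose of IL-2, also with any 1 day left out. It was higher with IL-15 than with IL-2 and lower with IL-2v than with IL-15, neither without day 10. Gzma, which encodes a granzyme, was higher at the higher dose of IL-2v (not without day 10). Klrg1 had at most 3.68 CPM, in naive cells.

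Across the 21 libraries, Prdm1 and Bhlhe40 varied together, with a Pearson r of log2(CPM + 1) of 0.81. For Prdm1 and Runx3 r was 0.65, for Zeb2 and Tox 0.64, for Eomes and Tox -0.69, for Eomes and Runx3 -0.67, and for Prdm1 and Bcl6 -0.20. These are descriptions, since the libraries share cytokines, doses and days. Among 7271 genes, those most alike to Prdm1 were Ddah2 (r of 0.97), Espn and Prkcsh, and those most alike to Bhlhe40 were Cdkn1a (0.96), Nfil3 and Cd93. Ttc7b (0.93), Ctnnd2 and Tmem176a were nearest to Eomes, and Zmiz2 (0.94), Cd6 and Il6st to Tox. Tspan2 (0.89), Hip1r and Chp1 were nearest to Runx3, Als2cl (0.83), Cxxc5 and Izumo1r to Zeb2, Mxd3 (0.82), H2-Oa and Stmn1 to Tbx21, and Btg2 (0.80), Nrip1 and Sesn3 to Bcl6.

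Within libraries, cells with a Gzmb UMI held more of several factors than cells without. Each cell was thinned to 2000 UMIs, and a library was compared where each side had at least 50 cells and the member at least 20 UMIs. Higher or lower here means that the interval of the ratio excluded 1. Bhlhe40 was higher in the Gzmb cells in 14 of 19 libraries and lower in 0, with a median ratio of 1.41. Eomes was higher in 11 of 19 and lower in 0 (median 1.44), Prdm1 in 9 and 0 (1.52), and Tbx21 in 6 and 0 (1.39). Tox went the other way, lower in 7 of 18 libraries and higher in 1 (median 0.755). These intervals count UMIs, and cells of a library are not replicates. The share of all genes higher or lower in cells with a Gzmb UMI was not computed.

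Cells with a Tcf7 UMI held less Prdm1 and Bhlhe40. Prdm1 was lower in them in 11 of 20 libraries and higher in 0 (median ratio 0.611), and Bhlhe40 in 12 and 0 (0.671). Of the same 20 libraries, Tbx21 was lower in 5 and higher in 0 (0.880), and Eomes lower in 3 and higher in 1 (0.980). Runx3 was lower in 2 and higher in 5 (1.04), and Tox lower in 0 and higher in 2 (1.22). Bcl6 was higher in 4 of 11 libraries and lower in 0 (median 1.69). The largest of these 4 was with IL-2 at 5 IU/mL on day 3, 11.6 against 4.23 CPM (ratio 2.74, 1.5 to 5.01). Cells with both a Prdm1 and a Tcf7 UMI were fewer than the product of the shares in 8 of 14 libraries, with a median of 0.638 of that product. For Eomes and Tcf7 this ratio had a median of 0.988 in 15 libraries, below 1 beyond counting error in 2. The share of all genes higher or lower in cells with a Tcf7 UMI, or seen less often with Tcf7, was not computed.

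In dividing cells, marked by a Mki67 or Top2a UMI, Runx3 was lower in 11 of 21 libraries and higher in 0, with a median ratio of 0.898. Eomes was lower in 8 and higher in 3 (median 0.718), and the 3 were IL-15 at 5 IU/mL on day 5, IL-2 at 50 IU/mL on day 10 and IL-2v at 5 IU/mL on day 10. Prdm1 was higher in 5 and lower in 0. For Tbx21 the interval held 1 in all 21 libraries. The share of all genes lower or higher in dividing cells was not computed.

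**Figure D5:**
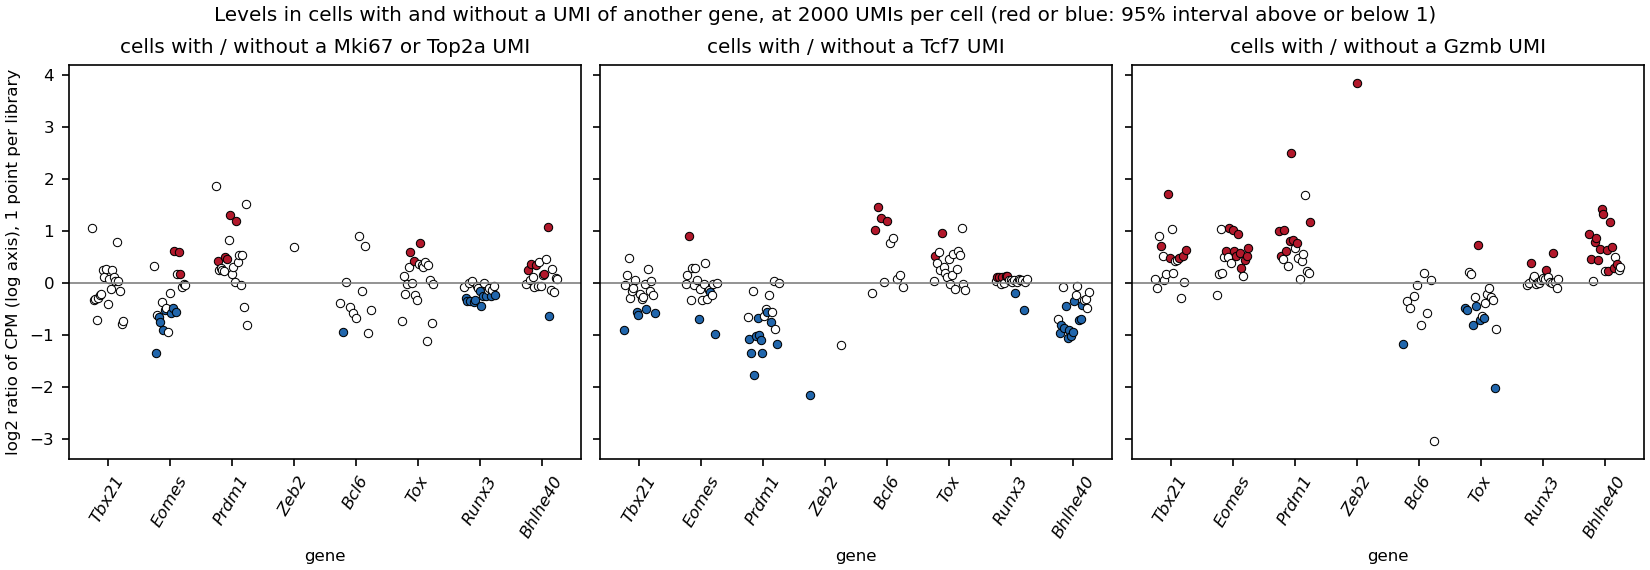
Ratio of the CPM of each factor (horizontal axis) in cells with a UMI of Mki67 or Top2a, Tcf7 or Gzmb to that in cells without (vertical axis, log2, 1 point per library, cells thinned to 2000 UMIs), red or blue where the 95% counting interval lies above or below 1. Libraries in which 1 side had no UMI of the factor are not drawn. Bhlhe40, Eomes, Prdm1 and Tbx21 lie mostly above 0 for Gzmb, and Prdm1 and Bhlhe40 below 0 for Tcf7.

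Where genes overlap, UMIs may belong to either, since whether counting used strand is not given in the sources used here. A gene on the opposite strand covers 2.84% of the exonic bases of Eomes (Gm33460), 3.27% of Zeb2 (Zeb2os), 3.42% of Tox (Gm11802) and 2.51% of Bhlhe40 (0610040F04Rik).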

How the data were processed

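Single-cell RNA-seq UMI counts of 21 libraries of mouse OT1 CD8 T cells were analysed as deposited. The submitters' processing notes name Cell Ranger, Seurat 4.0.1 and 3.0.2 and build mm10, with no role or order. The annotation, any filter and any doublet removal are not given in the sources used here. Groups followed the sample titles.

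Barcodes were kept from 1000 UMIs and 500 genes upwards if mitochondrial genes gave no more than 10% of UMIs. No doublets were called. UMIs were summed per library and given as CPM. Pairs of libraries were compared by log2(CPM + 1), for genes at 20 CPM or more in either library, and called at a difference of 1. Shares of cells and splits used cells thinned to 2000 UMIs with a fixed seed. The text names the 8 members, genes of the fixed lists and marker lists, and the 3 genes most alike to each member by Pearson r. It also names the division genes Mki67 and Top2a and genes that overlap members. Some genes of the gene and marker lists are not reported here. Members and lists were chosen with earlier results of these data known. With 1 library per condition there is no test. Alternatives were other scalings (TMM factors from edgeR 4.0.16, R 4.3.3), filters, pseudocounts of 0.1 and 10, and leaving out a day. Python 3.11.15, numpy 2.4.6, scipy 1.17.1, pandas 2.3.3 and matplotlib 3.10.9 were used.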

Additional observations from a re-analysis of the deposited data

How the results depend on the processing

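Each condition has 1 library and no replicate number, so no fit with a replicate block was made. The libraries were compared in pairs matched by day and dose or cytokine, by signs and medians. No model was fitted over these pairs, which are not replicates. Differences between conditions therefore include any difference between cultures, and low members (Bcl6, 8 to 195 UMIs, and Zeb2, 5 to 145 UMIs) are limited by counting. Of 672 member medians recomputed under the alternatives, 0 turned from a called direction to the opposite one and 82 moved by more than the counting error of their least precise pair. Of 336 recomputed shares of cells, 305 moved beyond their 95% interval, so shares hold only for the stated number of UMIs per cell.

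The count of member pairs at least 2-fold apart moved by over 1.5 times under few settings. Without the filter on low values it was 24 (from 14) for cytokine against none, 9 (from 3) for IL-2v against IL-2, 14 (from 9) for IL-15 against IL-2, 13 (from 8) for IL-2v against IL-15, 22 (from 14) for dose and 17 (from 7) for day 10 against day 5. With a threshold of 1.5-fold it was 25, 9 and 14 for the first 3 of these and 14 for day 10 against day 5. With a pseudocount of 10 it was 9 for cytokine against none. With totals without ribosomal protein and mitochondrial genes it was 5 for IL-2v against IL-2.

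Scaling moved the split of higher and lower calls over all genes. With TMM it went from 4371 and 1417 to 3165 and 2256 gene pairs for cytokine against none, from 677 and 456 to 521 and 542 for the dose of IL-2v, from 638 and 1871 to 878 and 1264 for day 5 against day 3, from 940 and 2639 to 1539 and 1694 for day 10 against day 5, and from 209 and 548 to 297 and 484 for no cytokine on day 5 against day 3. Without ribosomal protein and mitochondrial genes in the totals it went from 1102 and 1950 to 2276 and 1976 for IL-15 against IL-2, and from 2155 and 869 to 2201 and 1636 for IL-2v against IL-15. With the same totals, the split for day 3 without cytokine against naive cells went from 684 and 513 to 818 and 798 genes. The median of all genes shifted with TMM from -0.08 to 0.07 for day 10 against day 5 and from -0.08 to 0.03 for day 5 against day 3, from 0.07 to -0.05 for the dose of IL-2v, and to 0.12 for no cytokine on day 5 against day 3. The cause of these shifts was not tested.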
